A study of Rattus norvegicus with 16 samples.

Results

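The complement genes described here were 10 in number: the components C3, C1qa, C1qb, C1qc and Cfp, the receptors C5ar1 and C3ar1, and the membrane regulators Cd55, Cd59 and Cd46. They were taken by gene symbol, and each of the 10 had a single entry in all 16 files, in which 18031 genes were listed throughout. Complement is a cascade of plasma proteins that coats targets, recruits leukocytes and punctures membranes. C1q, built from the products of C1qa, C1qb and C1qc, starts the classical pathway. C3 is the step at which the pathways meet, and properdin (Cfp) stabilises the alternative convertase. The fragments C5a and C3a act on leukocytes through C5ar1 and C3ar1, while Cd55 and Cd59 protect host cells by dissolving convertases and by blocking the membrane attack complex. Most plasma complement is made by the liver, whereas properdin comes from leukocytes and C1q largely from macrophages and related cells.

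All 16 libraries were whole blood from male adult Sprague-Dawley rats of 85 to 90 days, and all carried 1 label, saline control. Each rat was given saline 4 times, 2 h apart and at a dose of 1 ml/kg, and was bled from the heart 3 h after the last dose. No untreated or drug-treated sample was used, so the comparisons were among control animals: the spread of each gene, its differences between codes in the file names, and its relation to blood cell marker genes. The 16 rats shared sex, strain, age and treatment, and a p-value therefore speaks of the spread among such animals only.

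The libraries held 21466776 to 31189549 estimated counts. Each file name carried a code whose meaning the labels do not give, and libraries of 1 code are called a run here: run A held controls 1 to 3, run B controls 4, 5, 7, 8 and 10, and run D controls 11 to 14, with 4 other controls in 3 smaller runs. No code was shared among controls 1 to 3, controls 4 to 10 and controls 11 to 16, blocks of the same sizes as control experiments that the methods of the study place months apart. Differences between runs therefore cannot be told apart from differences between animal cohorts or dates. Markers of neutrophils, monocytes, T cells, B cells, platelets and red cells were present in every library. Some libraries stood apart. Control 2 carried the 9 hepatocyte markers at a summed 476249 normalized counts, against a median of 69.3 over the 16 libraries, and control 8 was next at 29305. Controls 7 and 5 followed at 5520 and 2365. Control 12 was highest for all 6 adipocyte markers and control 10 for all 6 cardiac muscle markers. The main results that rest on controls 2, 8, 10 and 12 are given with and without them, but most correlations with single other genes are given for all 16 libraries only. Controls 5 and 7 were not left out in the same way.

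The 3 C1q chains are encoded by neighbouring genes: on the RefSeq GRCr8 assembly C1qc lies between C1qb and C1qa on chromosome 5, with no other protein-coding gene among them. Upstream sequences were found for 2 of the 3 C1q genes, and none was found for C1qc. The 250 bases before the start of C1qa and C1qb are shown because the chains moved together in these libraries. They were read from RefSeq on GRCr8, at chr5:154419934-154420183 and chr5:154407828-154408077, both on the minus strand and printed 5′ to 3′. Capitals mark TGCTGA, a core recognised by MAF factors, and GGAAGT, a core recognised by ETS factors such as PU.1, each on either strand and without overlap.
C1qa: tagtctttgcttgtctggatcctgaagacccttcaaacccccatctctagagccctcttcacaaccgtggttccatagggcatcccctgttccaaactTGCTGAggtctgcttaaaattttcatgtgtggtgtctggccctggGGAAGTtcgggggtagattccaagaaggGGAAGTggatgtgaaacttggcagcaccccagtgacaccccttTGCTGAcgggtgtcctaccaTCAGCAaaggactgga
C1qb: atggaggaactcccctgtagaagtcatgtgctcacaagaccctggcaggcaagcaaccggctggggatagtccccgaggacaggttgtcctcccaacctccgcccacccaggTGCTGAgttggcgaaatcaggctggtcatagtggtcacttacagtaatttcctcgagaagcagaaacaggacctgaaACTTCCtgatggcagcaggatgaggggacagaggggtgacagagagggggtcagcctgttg
C1qa held 3 matches of TGCTGA and 2 of GGAAGT, and C1qb held 1 of each. Of 33469 promoter windows of the same length, 15.1% held TGCTGA, 19.2% held GGAAGT and 2.77% held both. The letters were chosen after the C1q values were known, and a match describes the window only.

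The C1q chains varied widely and together. C1qa averaged 80.2 ± 96.3 normalized counts (SD, n = 16), with a lowest value of 1.37 in control 3, a median of 38.2 and a highest value of 274 in control 1. In controls 3, 5 and 6 the C1qa value was at or under 3 counts, the smallest number treated as detected, and no fold range was computed. C1qb averaged 115 ± 144 and ran from 5.49 in control 3 through a median of 29.5 to 394 in control 11. For C1qc the mean was 64.4 ± 71.9, the lowest value 3.43 in control 3, the median 17.9 and the highest 192 in control 1. The highest 6 values of each chain fell in the same libraries, controls 1, 2, 8, 9, 11 and 12, which came from 4 different runs. Of these libraries, controls 2, 8 and 12 also carried the most hepatocyte or adipocyte RNA. Control 14 was low for all 3, at 5.00, 8.01 and 6.00 normalized counts of C1qa, C1qb and C1qc.

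**Figure D1:**
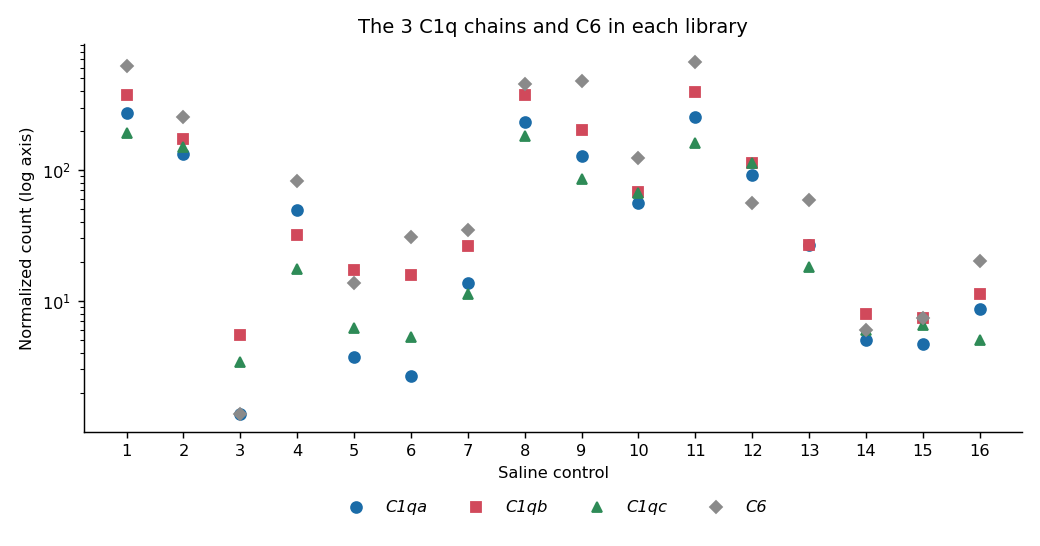
Normalized counts of C1qa, C1qb, C1qc and C6 (vertical log axis) in each of the 16 saline controls (horizontal axis), 1 point a library. The chains rise and fall in the same libraries, from 1.37 to 5.49 normalized counts in control 3 up to 162 to 394 in controls 1, 8 and 11, and C6 takes a similar course.

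Across the 16 libraries Pearson's r on log2 levels was 0.96 for C1qa with C1qb, 0.97 for C1qa with C1qc and 0.97 for C1qb with C1qc. Spearman's rho was 0.94, 0.95 and 0.94 for these pairs. Each permutation p was 1e-05, the smallest that 100000 permutations can give, and 2e-05 after adjustment over the 8 pairs of members tested. Among 12530 genes with a mean of at least 10 normalized counts, the best partner of C1qb was C1qc and the best partner of C1qc was C1qb. Centring within runs, and leaving out control 2, 8, 10 or 12 or the most extreme libraries, kept r between 0.96 and 0.98. The SD of the log2 ratio of C1qa to C1qb was 0.40 over the 13 libraries above the detection floor, against an SD of 2.04 for log2 C1qa alone in the same libraries. With at least 20 counts of both chains the ratios were less tight beside the chains. The SD of the C1qb to C1qc ratio was then 0.58 (7 libraries), against 0.97 for C1qb and 0.57 for C1qc. The C1qa to C1qc ratio had 0.42 (7 libraries), against 0.84 and 0.57. The C1qa to C1qb ratio had 0.41 (9 libraries), against 1.15 and 1.48.

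The genes most like the C1q chains, out of 8367 with a symbol and a mean of at least 100 normalized counts, were led by C6, a part of the membrane attack complex, at r = 0.94 with C1qa, 0.95 with C1qb and 0.90 with C1qc (n = 16). Ccl24, an eosinophil attractant, followed at r = 0.89, 0.91 and 0.84. C6 ran from 1.37 normalized counts in control 3 to 672 in control 11, and Ccl24 from 5.49 in control 3 to 1634 in control 8. The third gene was Tpsb2, a mast cell tryptase, for C1qa (r = 0.84) and C1qb (r = 0.83), and the membrane protein gene Tmem176a for C1qc (r = 0.83).

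Taken singly, the 8 tissue macrophage markers did not share 1 pattern with C1q, but their mean log2 level did separate the same libraries. It was 5.41, 6.62, 5.84, 5.14, 5.53 and 4.55 in controls 1, 2, 8, 9, 11 and 12. In the other libraries this mean lay between 3.40 in control 3 and 4.45 in control 7, the latter close to the 4.55 of control 12. In controls 1, 2, 8, 9, 11 and 12 Folr2 was 201, 37.6, 122, 135, 197 and 16.9 normalized counts, and in the other libraries it lay between 7.95 and 46.7. Cd163 lay between 16.9 and 116 in those same controls and between 0 and 24.9 elsewhere. Mrc1 was 53.1 in control 1 and 59.8 in control 11 but 113 in control 15, where C1q was low, and Marco was 0 in control 11. The summed level of the 8 tissue macrophage markers ran from 294 normalized counts in control 10 to 2534 in control 2, with a median of 729. Clec4f and Lyve1 gave most of that sum, and Lyve1 was highest in control 16 (797), where C1qb was 11.3. The hepatocyte gene Alb was 71.4, 330270, 11402, 21.0, 3.74 and 12.5 normalized counts in controls 1, 2, 8, 9, 11 and 12, so these libraries spanned its whole range. The part of macrophages or of liver RNA in the C1q values was not tested.

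C3, the central component, had a mean of 4310 ± 4853 normalized counts (SD, n = 16). It ran 19.0-fold, from 890 in control 3 through a median of 2259 to 16886 in control 8, and the next highest values were 14070 in control 14 and 8478 in control 2. The other 13 libraries lay at or below 5785. Alb was 330270 normalized counts in control 2 and 11402 in control 8 and 5.00 in control 14. The summed level of the 9 hepatocyte markers in control 14 was 107, of which Fgg gave 65.0 and Fga 25.0, and the part of liver RNA in the C3 values was not tested. Without control 2 the C3 mean was 4032, and without control 8 it was 3471.

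The genes closest to C3 in pattern were Tf, encoding transferrin (r = 0.94), Alas1, encoding the housekeeping enzyme that starts haem synthesis (r = 0.90), and Hp, encoding haptoglobin (r = 0.89, n = 16). Tf reached 54860 normalized counts in control 2, and Hp reached 62891 in control 8 and 46259 in control 14. Without control 2 the correlation of C3 with Tf was 0.94, and without control 8 it was 0.93.

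Cfp, properdin, averaged 2466 ± 1156 normalized counts and ran from 1123 in control 4 through a median of 2233 to 5083 in control 8, a 4.53-fold range. The C5a receptor gene C5ar1 averaged 4223 ± 2148 and ran 6.21-fold, from 1362 in control 6 through a median of 4513 to 8455 in control 8. The order of the libraries was much the same for both genes. Their r was 0.96 and rho 0.95 (permutation p = 1e-05, the smallest possible, and 2e-05 adjusted over the 8 pairs, n = 16), and r stayed between 0.95 and 0.97 under every alternative run for this pair. Of 12530 genes, 0.0798% had a higher r with Cfp than C5ar1 did. Genes still closer to C5ar1 were Ifngr1 and Tnfrsf1a, the receptors of interferon gamma and tumour necrosis factor (r = 0.98 each), and Chi3l1, a secreted chitinase-like protein (r = 0.98). Those closest to Cfp were Prr13, Ubtd1 and Napsa, at r = 0.97 each.

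C3ar1, the C3a receptor gene, averaged 147 ± 59.8 normalized counts, with 51.5 in control 12, a median of 131 and 269 in control 16. It did not share the pattern of C5ar1 (r = 0.06, permutation p = 0.84) or of C3 (r = 0.19, permutation p = 0.48, n = 16). The nearest genes were Lrp1, a scavenger receptor (r = 0.77), Cyth3 (0.76) and Adnp2 (0.75). Without control 12, which held the lowest C3ar1 value, these r were 0.67, 0.67 and 0.72.

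**Figure D2:**
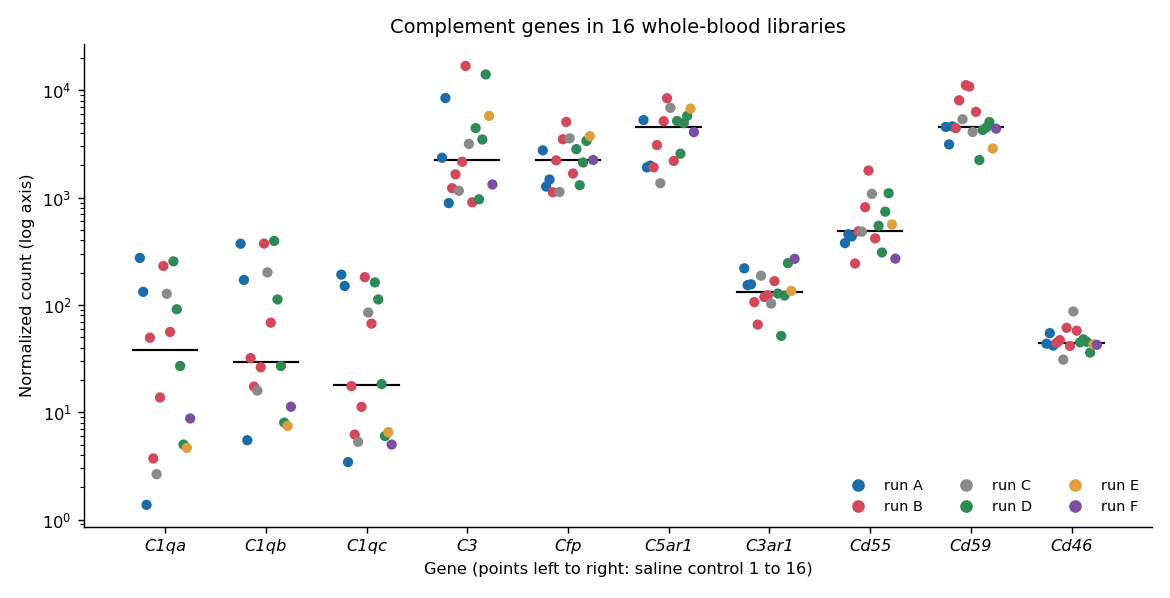
Normalized counts (vertical log axis) of the 10 complement genes (horizontal axis) in the 16 libraries, with points coloured by run code and a black line at the median of each gene. C3 spread over 19.0-fold and C1qb over 71.9-fold, whereas Cd46 stayed between 30.9 and 87.1.

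Among the membrane regulators, Cd55 averaged 632 ± 403 normalized counts and ran 7.36-fold, from 243 in control 4 through a median of 484 to 1791 in control 8. Cd59 averaged 5371 ± 2576, with 2240 in control 11, a median of 4522 and 11165 in control 7, and control 8 was close at 10844. Cd46, whose protein is made mainly in testis in rodents, was 48.1 ± 12.8, from 30.9 in control 6 through a median of 44.6 to 87.1 in control 9. The levels of different genes are not ordered here, since they were not divided by transcript length.

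No relation of Cd55 with Cd59 was detected (r = 0.38, rho = 0.23, permutation p = 0.14, adjusted p = 0.19, n = 16). Their r was 0.55 after centring within runs (adjusted permutation p = 0.16) and 0.13 without control 8. Cd55 and C5ar1 followed each other, at r = 0.66 and rho = 0.66 (permutation p = 0.0052, adjusted p = 0.0084), with r = 0.79 after centring within runs. Such an r was not particular to this pair. Of 12530 genes, 8.83% had a higher r with Cd55 than C5ar1 did, and 12.4% had a higher r with C5ar1 than Cd55 did. The relation of Cd55 with C5ar1 rested in part on controls 8 and 14: without both, r was 0.54 and the adjusted p 0.078. The nearest genes to Cd55 were Gcnt2 (r = 0.93), Creb1 (0.92) and Tmem33 (0.92), those to Cd59 were Cdkl1 (0.87), Blzf1 (0.86) and Eapp (0.86), and those to Cd46 were Slc30a6 (0.81), Zfp639 (0.81) and Tmem69 (0.75).

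The coefficient of variation summarises this spread. It was 120% for C1qa, 125% for C1qb, 112% for C1qc and 113% for C3, so 4 of the 10 genes exceeded 100%, as did 6.21% of 12531 genes with a mean of at least 10 normalized counts. The other members had values from 26.6% for Cd46 to 63.7% for Cd55, and the median over all those genes was 29.1%. With counts scaled by the library total alone C3 stood at 101%, and the same count of 4 genes was found under every scaling and without each of controls 2, 8, 10 and 12.

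Whole blood is a mixture, and more cells of a type cannot be told apart from more RNA per cell in such data. The genes were therefore set against the mean log2 level of marker lists in a fit over all genes (edgeR, all 16 libraries). A slope is the log2 change of a gene for 1 log2 unit of the list level, and a gene was called at a Benjamini-Hochberg adjusted p under 0.05. Genes said to rise or fall on a list are those called. Of 10920 genes fitted, 7 were members; the C1q chains did not pass the filter on low counts and were fitted separately with a lower one.

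Against the neutrophil list, 4 of the 7 members rose, while 15.9% of all genes rose. The neutrophil level ran from 9.89 in control 6 to 13.75 in control 8, with a mean of 11.56 (log2). The slope was 0.65 ± 0.09 for C5ar1 (SE, adjusted p = 1.5e-05) and 0.56 ± 0.07 for Cfp (adjusted p = 4.3e-06). Cd55 gave 0.55 ± 0.09 (adjusted p = 0.00014). All 3 passed in each of the 10 alternatives. With the run code as a term the slopes were 0.73 for C5ar1, 0.64 for Cfp, 0.68 for Cd55 and 1.01 for C3. C3 had a slope of 0.67 ± 0.20 (adjusted p = 0.018) that passed in 8 of 10 alternatives. Without control 8 it was 0.55 (adjusted p = 0.13), without controls 8 and 14 it was 0.24 (adjusted p = 0.60), and without control 2 it was 1.11. Values for the members not called were 0.21 ± 0.12 for Cd59 (adjusted p = 0.17), 0.05 ± 0.09 for Cd46 and -0.05 ± 0.13 for C3ar1.

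**Figure D3:**
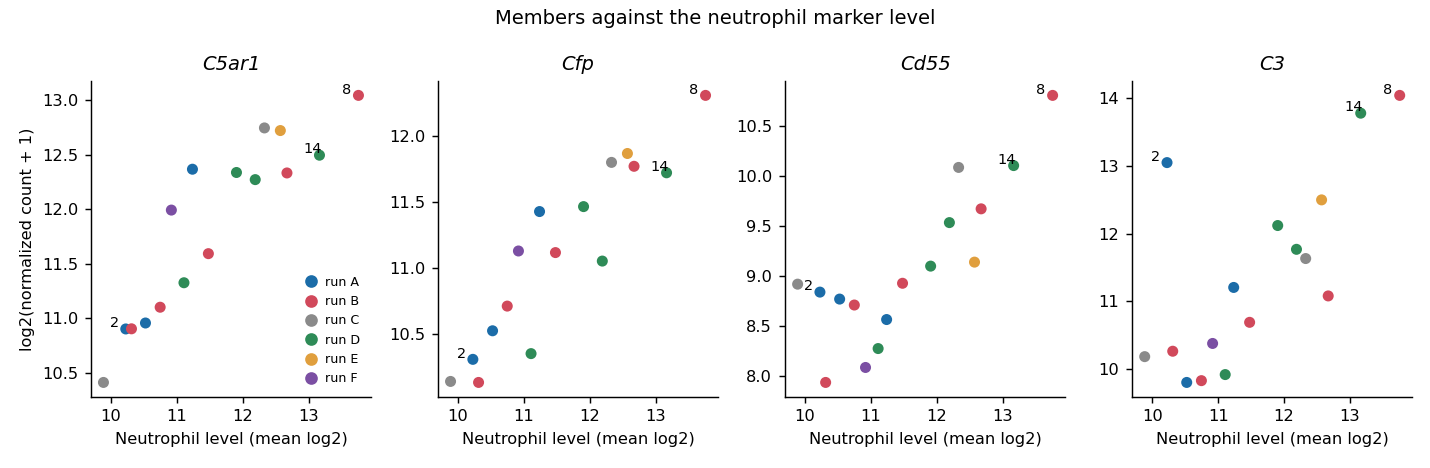
Log2(normalized count + 1) of C5ar1, Cfp, Cd55 and C3 (vertical axes) against the mean log2 level of 8 neutrophil markers (horizontal axes), 1 point a library coloured by run, with controls 2, 8 and 14 numbered. C5ar1 and Cfp climb along the whole range, and for C3 control 2 (8478 normalized counts) lies above the other libraries of similar neutrophil level, and below controls 8 and 14.

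With the T-cell list 4 members fell, again C5ar1, Cfp, Cd55 and C3, against 9.84% of all genes falling. The slope was -3.00 ± 0.90 for C3 (adjusted p = 0.032) and -1.78 ± 0.42 for C5ar1 (adjusted p = 0.014). Cd55 had a slope of -1.81 ± 0.38 (adjusted p = 0.011) and Cfp of -1.58 ± 0.35 (adjusted p = 0.012). No member was called when counts were scaled by the library total, without control 8, or without controls 3 and 12, the most extreme in this level. The adjusted p of these 4 genes then lay between 0.056 and 0.21. C3 was also not called without control 12 (adjusted p = 0.074) or without control 10 (adjusted p = 0.063). With the run code as a term the 4 slopes lay between -3.71 for C3 and -1.66 for Cfp, and all passed. The T-cell level covered a narrow range, from 9.70 in control 8 to 10.84 in control 12, and the neutrophil and T-cell levels had their opposite extremes in control 8. Controls 12, 3, 4 and 10 had the highest T-cell levels. Their neutrophil levels were 11.11, 10.52, 10.31 and 10.75, below the mean of 11.56. The lists were fitted 1 at a time, so slopes of the same gene on different lists are not separate results.

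On the B-cell list 2 of the 7 members were called, both with negative slopes, where 5.82% of all genes fell. They were C5ar1 at -1.23 ± 0.34 (adjusted p = 0.033) and Cfp at -1.11 ± 0.26 (adjusted p = 0.018). Neither was called with total-count scaling, without control 2, without control 8, or without controls 6 and 8, and C5ar1 was not called without control 12 either (adjusted p = 0.050). With the run code as a term the slopes were -1.61 for C5ar1 and -1.35 for Cfp, and both passed. Cd55 gave -0.88 ± 0.33 (adjusted p = 0.090) and Cd59 -0.65 ± 0.26 (adjusted p = 0.12).

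For the monocyte list no member was called, and no gene at all (0% of 10920), although 873 genes had an unadjusted p under 0.05. C5ar1 had a slope of 1.28 ± 0.53 (adjusted p = 0.62), Cfp 1.07 ± 0.48 (adjusted p = 0.62) and C3ar1 0.71 ± 0.41 (adjusted p = 0.64). DESeq2 called 4 genes and no member. Of the 6 genes averaged into this level, Ms4a7 was near the detection floor. It was 0 normalized counts in most libraries and highest, at 5.15, in control 12. The effect of Ms4a7 on these slopes was not tested by itself. The monocyte level covered a narrow range, from 8.08 to 9.34, and when the list was reduced to Csf1r, Cx3cr1 and Cd68, a choice made after seeing the data, the slopes of C5ar1 and Cfp became -0.23 and -0.25.

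On the platelet list 0 of the 7 members were called, with 3.12% of all genes rising. C3 came nearest at 0.94 ± 0.28 (adjusted p = 0.090), and DESeq2 called it at an adjusted p of 0.0086. The erythroid list had 1 of 7, where 7.53% of all genes rose: Cd59, which also guards red cells from lysis, rose by 0.78 ± 0.17 (adjusted p = 0.0044).

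**Figure D4:**
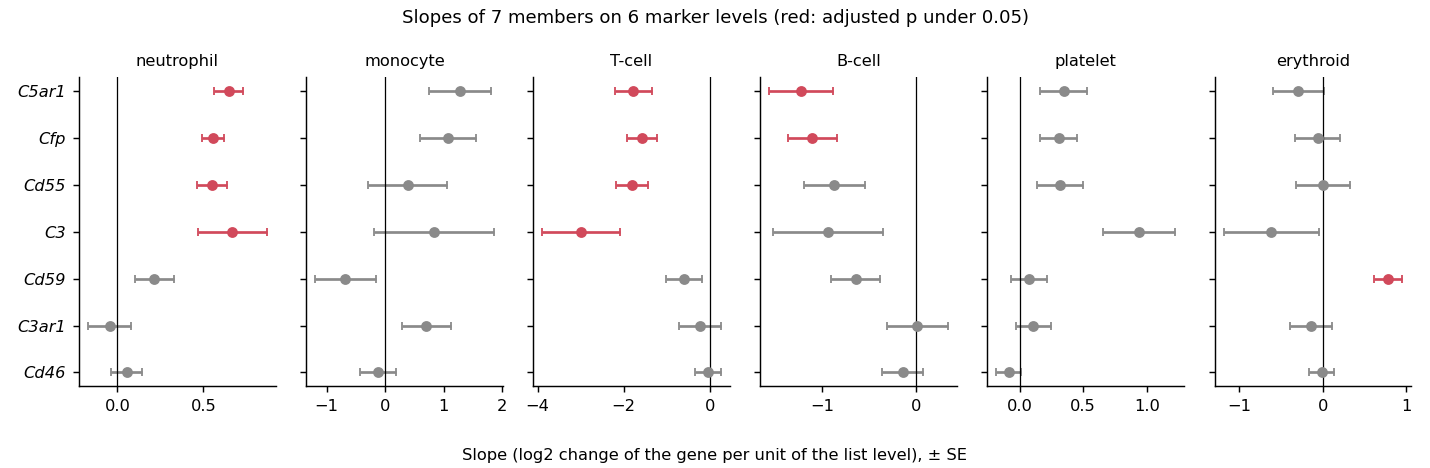
Slopes ± SE (horizontal axes, log2 change per unit of list level) of 7 complement genes on 6 marker levels, with red points for an adjusted p under 0.05. C5ar1, Cfp, Cd55 and C3 lie to the right of 0 for neutrophils and to the left for T cells, and Cd59 alone is red for red cells.

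Run code moved with this last result. Cd59 was 4444, 8078, 11165, 10844 and 6310 normalized counts in controls 4, 5, 7, 8 and 10 of run B. In run A it was 4561, 3132 and 4610, and in run D 2240, 4274, 4483 and 5065. Run B thus held the 4 highest values of all 16 libraries, with 1 value inside the range of the other runs, and it also held the highest erythroid levels. With the run code as a term the slope on the erythroid level was 0.45 (adjusted p = 0.92), and no gene was called in that fit. Scaling by the library total gave 0.40 (adjusted p = 0.064) and moved the median slope of all genes from -0.07 to -0.43.

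**Figure D5:**
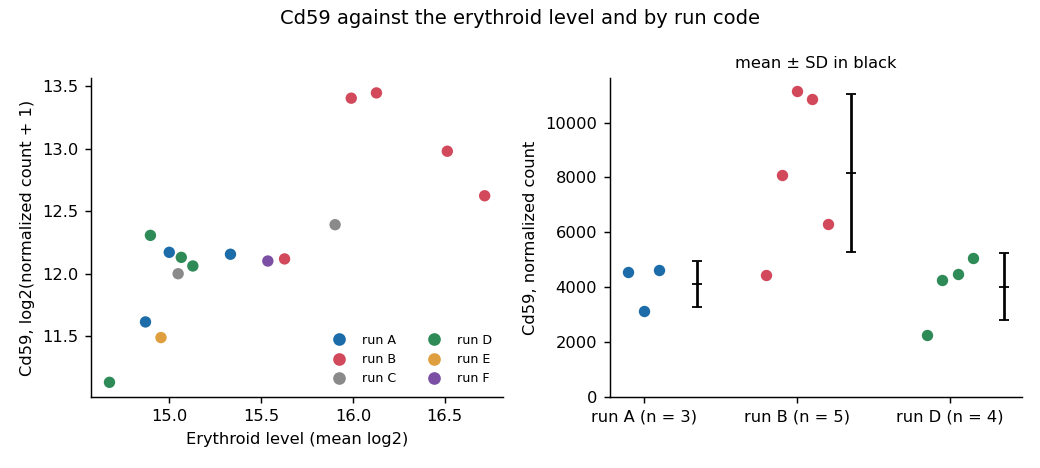
Left, log2(normalized count + 1) of Cd59 against the mean log2 level of 5 erythroid markers in 16 libraries coloured by run; right, normalized counts of Cd59 in runs A, B and D with mean ± SD in black. Run B holds the highest values on both axes.

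The C1q chains, fitted among 15531 genes with a mean count of at least 1, gave 18 slopes over the 6 lists, and none was called or had an unadjusted p under 0.05. The nearest was C1qb on the T-cell list at -1.80 ± 1.43 (adjusted p = 0.46). On the neutrophil list C1qb had a slope of 0.41 ± 0.43 and on the monocyte list 1.30 ± 1.44. In these fits 19.7% of genes were called for neutrophils, 1.95% for monocytes, 9.96% for T cells, 6.07% for B cells, 2.7% for platelets and 5.55% for red cells. The standard errors leave room for large slopes in either direction.

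No member was called different between runs. All 10 were tested among 12952 genes, of which 0% were called between A and B, 0% between A and D and 2.3% between B and D (edgeR, with an unadjusted p under 0.05 in 13.6%, 5.41% and 11.3% of genes). The lowest p among members belonged to Cd59, which was 1.02 ± 0.31 lower on the log2 scale in D than in B (adjusted p = 0.14) and 0.98 ± 0.35 higher in B than in A (adjusted p = 0.24). DESeq2 called Cd59 between B and D (adjusted p = 0.023), as did edgeR without control 4 (adjusted p = 0.037). For the C1q chains and C3 the standard errors were 0.99 to 1.40 log2 units, so that even large run differences were not detectable.

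Of 45 symbols of other complement genes, listed by role and including alternative names, 39 were found in all 16 files. Many had their highest value in control 2, the library with the most hepatocyte RNA: it held the highest value for 24 of the 39, among them 9 of 10 initiators and their proteases, 5 of 7 terminal components and 9 of 9 soluble regulators. The mannose-binding lectin gene Mbl1 was 579 normalized counts there and the factor I gene Cfi 1862, while the median of each over the 16 libraries was 0. A mean of at least 100 normalized counts was reached by 25 genes with control 2 and by 17 without it. Of 10 membrane regulators and receptors, 1 had its highest value in control 2. The share of all genes with their highest value in control 2 was not counted. That library also had the most genes with a count, 16144.

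Among the other complement genes 16 were fitted against the marker lists. On the neutrophil list 6 of the 16 rose, where 15.9% of all genes rose. These 6 were Cr1l, the rodent membrane regulator Crry (0.18), Cfd, factor D (0.63), the ficolin gene Fcnb (0.43), the second C5a receptor gene Gpr77 (0.27), and Itgam (0.72) and Itgb2 (0.25), the chains of complement receptor 3. Of these, Cfd and Itgam were called in all 10 alternatives, Cr1l and Fcnb in 9, Gpr77 in 6 and Itgb2 in 4. Cr2, the B-cell complement receptor gene, fell by 0.36 (called in 8 of 10), where 12.4% of all genes fell. The B-cell list was followed by Cr2 (1.05, called in 9 of 10), with 4.37% of all genes rising. Cfd fell on it (-1.36, called in 5 of 10 alternatives), where 5.82% of all genes fell. On the T-cell list Cd93, Gpr77, Itgam, Itgax and Itgb2 fell, with slopes from -0.81 to -2.47, and 9.84% of all genes fell. None of the 5 was called with total-count scaling, without controls 3 and 12, or without control 8, and 2 of the 5 were called with the run code as a term. Clu, clusterin, rose with platelets (0.89, called in 9 of 10 alternatives), as did Itgax (0.27, called in 3 of 10), where 3.12% of all genes rose. Without controls 10 and 12, the most extreme in the platelet level, the slope of Clu was 0.64 (adjusted p = 0.14). Clu had its lowest value, 903 normalized counts, in control 10 and its next lowest, 4533, in control 12. Calr, calreticulin, rose with red cells (0.55), where 7.53% of all genes rose. With the run code as a term its slope was 0.37 (adjusted p = 0.92), and with total-count scaling 0.17 (adjusted p = 0.15). The median slope on the neutrophil list was 0.55 for the 7 members and 0.20 for these 16 genes, against -0.03 for all genes.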

How the data were processed

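Whole blood from 16 saline control rats was sequenced after globin depletion and poly-A selection. Reads were aligned by the authors with Bowtie 0.12.9 to the Ensembl transcriptome of rn5, and the deposited files hold RSEM 1.2.0 estimated counts per gene. These expected counts were rounded to whole numbers. The files listed between 18677 and 26405 genes depending on the run, and the 18031 genes listed in all were kept. Normalized counts are rounded counts divided by DESeq2 median-ratio size factors, and log2 levels used a pseudocount of 1. A value of 3 counts in a library, which is 2.06 to 4.67 normalized counts, was taken as the detection floor, for counting error only.

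Run differences and slopes came from edgeR 4.0.16 quasi-likelihood fits (TMM scaling, filterByExpr, Benjamini-Hochberg adjustment over all genes fitted) in R 4.3.3. DESeq2 1.42.0 and limma 3.58.1 (voom) served as alternatives. Pairs of members were compared by two-sided permutation of log2 levels. Scripts were tested on simulated data.

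The 10 genes, marker lists and tests were chosen with earlier results of these data known. Named genes were the members, the 3 genes of highest r with each, and the other complement genes called in a fit. Groups came from the labels and runs from codes in the file names, whose meaning the labels do not give. No transcript lengths were used.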

Additional observations from a re-analysis of the deposited data

How the results depend on the processing

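No paired analysis was possible because all libraries carried 1 label and their numbers were not shared between groups. The order of the genes by level per length was not run, since no transcript lengths were used here. Of the genes tested, 0%, 0% and 2.3% (298 genes) were called between runs A and B, A and D, and B and D. DESeq2 gave 4.45%, 0.111% and 5.87% (563, 14 and 742 genes), limma-voom 0.0540% for A and B, all 16 libraries 0.00703% for A and D, and total-count scaling 0.0463% (6 genes) for B and D. Leaving out 1 library gave 0% to 3.93%, 0% to 0.0150% and 0.0155% to 5.44%, the highest of A and B and of B and D without control 4 and the lowest of B and D without control 14. Members differing between runs were 0, but 1 (Cd59) with DESeq2 and 0 to 1 when leaving out 1 library. Of members following a list, the T-cell count of 4 became 0 with total-count scaling, without the 2 extreme libraries and without control 8. The B-cell count of 2 became 0 in these settings and without control 2, and 1 without control 12. The platelet count of 0 became 1 (C3) with DESeq2. The erythroid count of 1 became 0 with total-count scaling or the run term and 2 (C3 and Cd59) without control 8. The neutrophil count of 4 was 3 to 4 and the monocyte count 0 throughout. Other signs were seen for C3ar1 on the neutrophil list (0.10 with the run term), C5ar1 and Cfp on the 3-gene monocyte level (-0.23 and -0.25), and C5ar1 with C3ar1 (rho -0.062, and r -0.055 without control 12), none of them called. With total-count scaling the genes called higher and lower were 724 and 245 for neutrophils (1735 and 1359 before), 5 and 0 for T cells (678 and 1075), 206 and 35 for B cells (477 and 635), and 352 and 4647 for red cells (822 and 19). The causes were not tested. Depth limits C1qa, which was at or under the floor in 3 libraries.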
